A study of Homo sapiens with 12 samples.

Results

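Transcripts of 9 genes of major histocompatibility complex (MHC) class I antigen presentation were followed in the triple-negative breast cancer cell line MDA-MB-468 after inhibition of the histone methyltransferase DOT1L. The genes are HLA-B, HLA-C, HLA-E, B2M, TAP1, TAP2, PSMB8, PSMB9 and NLRC5. They were taken by name: each is the row of the count table whose Ensembl identifier, without its version, maps to that symbol, so 9 of 57783 genes are described. All 9 passed the filter on low counts, which left 16327 genes for testing.

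A treatment and a sort formed 4 groups, with 3 replicates in each, which the labels' protocols call biological. The treatment was 10 days with 0.5 µM EPZ5676 or with DMSO, the solvent. EPZ5676, also named pinometostat, inhibits DOT1L, which methylates histone H3 at lysine 79. Afterwards the cells were sorted into ALDH1+ and ALDH1- populations. The groups are EPZ5676 ALDH1+, DMSO ALDH1+, EPZ5676 ALDH1- and DMSO ALDH1-. All come from the same parental line. High aldehyde dehydrogenase (ALDH1) activity is a common mark of breast cancer cells with stem cell traits. RNA was sequenced in bulk, and total counts ran from 24348594 to 80195050 per library.

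MHC class I molecules show peptides from inside the cell to CD8 T cells. A polymorphic heavy chain, such as HLA-B or HLA-C, pairs with the invariant light chain B2M. The proteasome cuts the peptides. TAP1 and TAP2 form the pump that carries them into the endoplasmic reticulum, where they are loaded. PSMB8 and PSMB9 are catalytic subunits that replace constitutive ones in the immunoproteasome and are induced by interferon-gamma. HLA-E presents peptides from the leader sequences of other class I chains to receptors of natural killer (NK) cells. NLRC5 is the transactivator that drives class I promoters. Low class I expression is a known route by which tumour cells avoid T cells.

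Promoter sequences are given here because the class I genes are known to share elements near their start sites that are bound by interferon-regulated and NF-kB factors. RefSeq promoter windows on GRCh38.p14, reaching from 250 bases before to 50 after the listed start, were matched for 7 of the 9 genes. HLA-E and NLRC5 were not matched. The windows of HLA-B (chr6:31357130-31357429, minus strand), HLA-C (chr6:31272043-31272342, minus strand), B2M (chr15:44711267-44711566, plus strand) and the first listed start of TAP1 (chr6:32853655-32853954, minus strand) read as follows. Capitals mark every match, on either strand, to GAAANNGAA, a short form of the interferon-stimulated response element (ISRE), and to the degenerate NF-kB consensus (kB).
HLA-B: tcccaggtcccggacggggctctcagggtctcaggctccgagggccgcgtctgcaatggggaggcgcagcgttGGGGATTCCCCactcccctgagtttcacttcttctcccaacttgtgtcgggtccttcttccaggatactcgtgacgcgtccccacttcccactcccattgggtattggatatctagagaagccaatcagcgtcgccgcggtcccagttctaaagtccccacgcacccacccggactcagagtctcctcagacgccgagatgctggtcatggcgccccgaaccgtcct
HLA-C: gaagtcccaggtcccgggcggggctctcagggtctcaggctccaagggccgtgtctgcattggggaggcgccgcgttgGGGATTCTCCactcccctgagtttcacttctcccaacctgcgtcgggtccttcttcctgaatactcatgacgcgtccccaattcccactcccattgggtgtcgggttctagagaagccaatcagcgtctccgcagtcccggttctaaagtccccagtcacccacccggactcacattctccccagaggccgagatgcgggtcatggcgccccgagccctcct
B2M: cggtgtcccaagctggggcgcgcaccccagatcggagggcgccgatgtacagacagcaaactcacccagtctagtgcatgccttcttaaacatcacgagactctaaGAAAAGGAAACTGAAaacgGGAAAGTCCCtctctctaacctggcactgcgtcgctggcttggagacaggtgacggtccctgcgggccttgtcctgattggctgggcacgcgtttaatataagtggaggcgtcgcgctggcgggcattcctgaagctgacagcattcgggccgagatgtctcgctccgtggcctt
TAP1: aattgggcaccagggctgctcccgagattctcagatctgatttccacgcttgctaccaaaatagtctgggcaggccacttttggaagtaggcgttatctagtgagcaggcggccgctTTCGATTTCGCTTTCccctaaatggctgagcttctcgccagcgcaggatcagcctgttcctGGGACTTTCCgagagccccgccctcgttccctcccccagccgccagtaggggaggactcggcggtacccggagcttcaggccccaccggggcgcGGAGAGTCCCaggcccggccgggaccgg

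The windows of HLA-B and HLA-C each held the kB pattern and no match to these ISRE letters. The short form misses ISRE sites with other letters or spacing, so a window without a match is not shown to lack the element. In HLA-B a pair of overlapping kB matches began 177 and 176 bases before the start, and in HLA-C a single match began 172 bases before it. B2M held both patterns, with overlapping ISRE matches beginning 144 and 138 bases before the start and a kB match at 125 bases. TAP1 also held both, with overlapping ISRE matches at 133 and 127 bases and kB matches at 72 bases before and 22 bases after the start. TAP2 held an ISRE match at 58 bases and PSMB8 held an ISRE match at 3 bases, in the window of its second listed start. A gene was counted when any of its listed starts matched, whereas the share over all promoters counts single windows. TAP1 and PSMB8 had 2 listed starts each, so the 7 genes had 9 windows. Across the genes with a window, 4 of 7 held the ISRE pattern, against 8.11% of 35116 promoters, and 4 of 7 held the kB pattern, against 5.91%. The CCAAT letters stood in 5 of 7, against 34.61% of all promoters, and TGACGTCA, the palindromic cyclic AMP response element, in 0 of 7, against 1.85%. TAP1 and PSMB9 lie head to head, with 487 bases between their starts, and their windows share 13 bases. The CCAAT matches of TAP1 and PSMB9 are the same site within these shared bases, counted for both genes. The patterns were set after first matches in these windows had been seen, so the shares beside all promoters are no test. All the matches given here describe the letters only.

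Values are counts per 1000000 counts (CPM) of the TMM-scaled library (trimmed mean of M values, a correction for library composition). Fold changes are on the log2 scale with their standard error (SE), and a gene was called at an adjusted p below 0.05 by edgeR's quasi-likelihood test with Benjamini-Hochberg adjustment over all 16327 genes.

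With EPZ5676, 7 of the 9 genes rose in ALDH1+ cells, and the same number rose in ALDH1- cells. These were HLA-B, HLA-C, B2M, TAP1, TAP2, PSMB9 and NLRC5 in each population, and 0 fell. Over all genes, 17.8% were called higher and 13.7% lower in ALDH1+ cells, and 13.6% higher and 9.04% lower in ALDH1- cells. The median log2 fold change of the 9 genes was 0.58 in ALDH1+ cells and 0.48 in ALDH1- cells, beside -0.01 and -0.02 over all genes tested. The 9 genes were chosen with earlier results of these data known, so standing above all genes is a description and not a test. HLA-E and PSMB8 were not called in either population in this fit, which does not use the replicate numbers. With the replicate number as a block, 8 of the 9 genes were called higher in ALDH1+ cells and 9 in ALDH1- cells. Without DMSO ALDH1- replicate 3, or without EPZ5676 ALDH1- replicate 2, 4 of the 9 genes were called higher in ALDH1- cells. The EPZ5676 libraries did not overlap the DMSO libraries, lying above them, for 6 of the 9 genes in ALDH1+ cells and 8 of 9 in ALDH1- cells, which held for 22.0% and 19.7% of all genes. In bulk RNA, more cells that express a gene and more RNA per cell cannot be told apart.

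**Figure D1:**
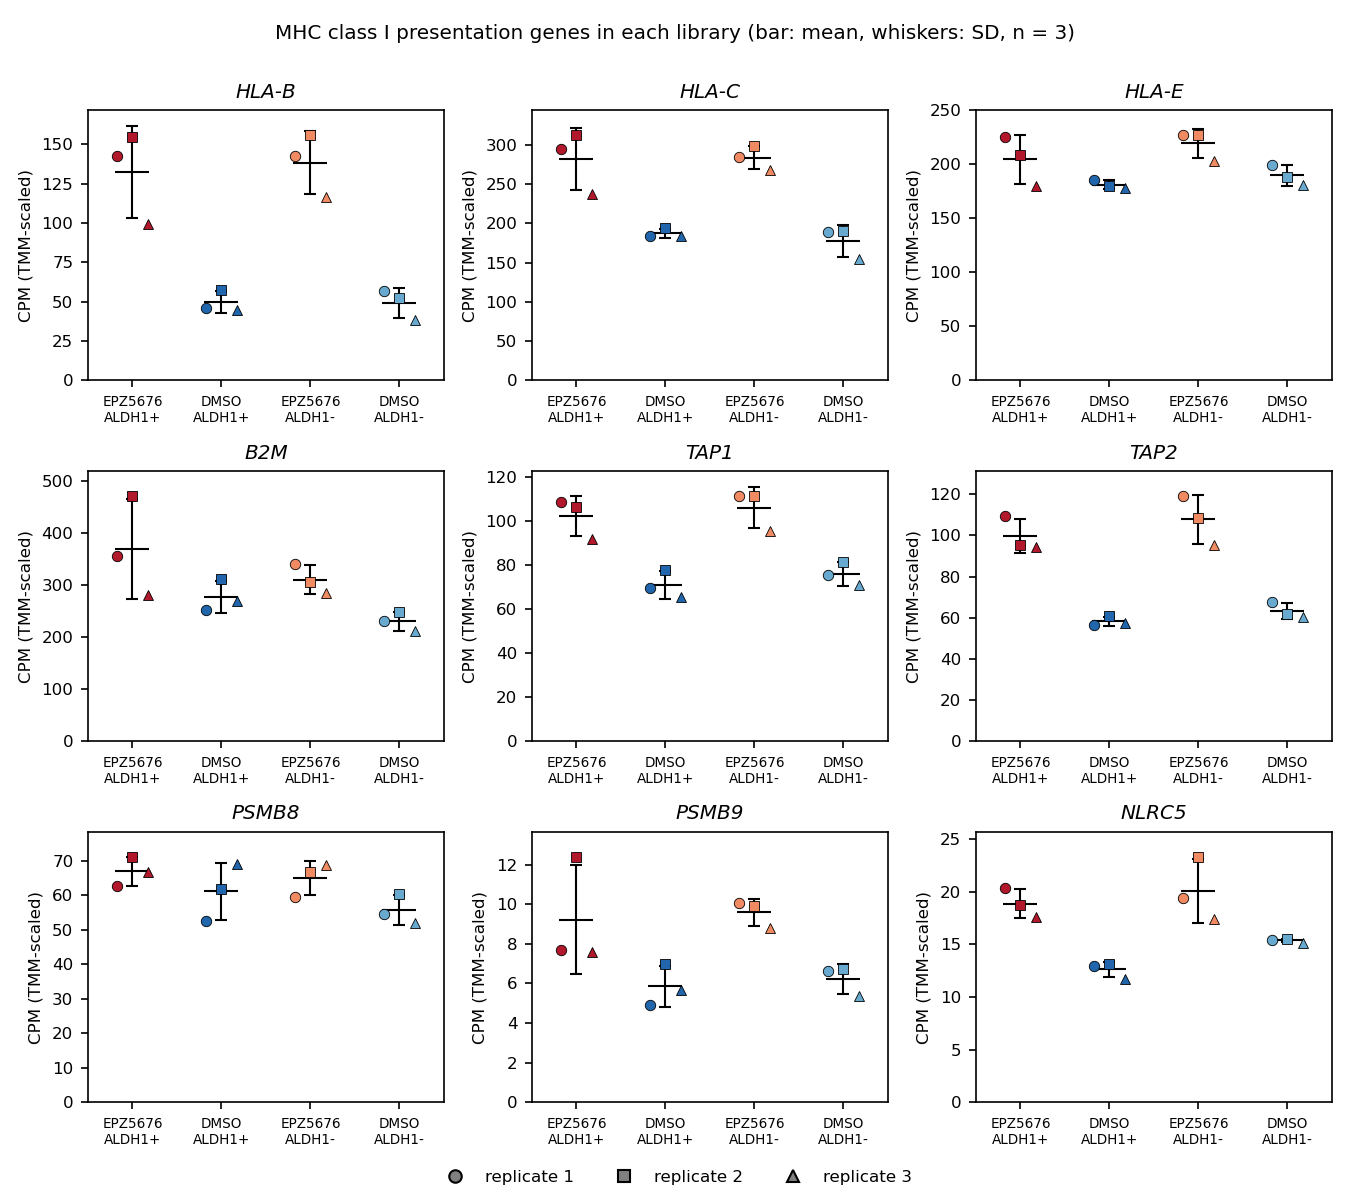
Level of each of the 9 genes in every library, in CPM from 0 on a linear axis, for the 4 groups, with replicates 1, 2 and 3 as circles, squares and triangles, the mean as a bar and the SD as whiskers (n = 3). HLA-B shows the largest fold change, with EPZ5676 libraries from 99.4 to 156 CPM and DMSO libraries from 38.5 to 57.7 CPM, whereas the EPZ5676 and DMSO libraries of PSMB8 overlap in both populations.

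Among HLA-B, HLA-C and HLA-E, the fold change was largest for HLA-B. HLA-F, a heavy chain outside the 9 genes, rose by 1.30 (SE 0.16) in ALDH1+ cells and 1.40 (SE 0.16) in ALDH1- cells. Its difference from HLA-B was not tested. HLA-B, a classical heavy chain, had 143, 155 and 99.4 CPM in EPZ5676 ALDH1+ cells, against 46.3, 57.7 and 45.0 CPM in DMSO ALDH1+ cells. In ALDH1- cells it had 142, 156 and 117 CPM with EPZ5676, against 56.8, 52.2 and 38.5 CPM with DMSO. Every EPZ5676 library lay above every DMSO library of its population, and replicate 3 was the lowest of each group. The log2 fold change was 1.42 (SE 0.17, adjusted p = 2.1e-05) in ALDH1+ cells and 1.49 (SE 0.17, adjusted p = 2.1e-05) in ALDH1- cells by edgeR. Ordered by fold change, HLA-B stood 796th of 16327 genes in ALDH1+ cells and 590th in ALDH1- cells, counted from the largest rise.

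HLA-C, the other classical heavy chain described, rose with a smaller fold change. It had 295, 313 and 238 CPM in EPZ5676 ALDH1+ cells, against 184, 194 and 184 CPM in DMSO ALDH1+ cells. Among ALDH1- cells, HLA-C had 285, 298 and 268 CPM with EPZ5676, against 189, 190 and 154 CPM with DMSO. The groups did not overlap in either population. By edgeR the log2 fold change was 0.59 (SE 0.10, adjusted p = 3.9e-04) in ALDH1+ cells and 0.68 (SE 0.10, adjusted p = 1.8e-04) in ALDH1- cells.

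HLA-E, the nonclassical chain read by NK cell receptors, was not called. It had 225, 208 and 180 CPM in EPZ5676 ALDH1+ cells, against 185, 180 and 178 CPM in DMSO ALDH1+ cells. Among ALDH1- cells, HLA-E had 227, 227 and 203 CPM with EPZ5676, against 200, 188 and 181 CPM with DMSO. The groups overlapped in ALDH1+ cells through EPZ5676 replicate 3, and did not overlap in ALDH1- cells. The log2 fold change was 0.18 (SE 0.08, adjusted p = 0.104) in ALDH1+ cells and 0.21 (SE 0.08, adjusted p = 0.0743) in ALDH1- cells by edgeR. With the replicate number as a block HLA-E was called higher in both, at 0.17 (adjusted p = 0.0259) and 0.21 (adjusted p = 0.0114). Without EPZ5676 ALDH1+ replicate 3 it was called in ALDH1+ cells, at 0.26 (adjusted p = 0.0152), and in ALDH1- cells (adjusted p = 0.0358), where it was also called without EPZ5676 ALDH1- replicate 3 (adjusted p = 0.0377) and with only the groups compared (adjusted p = 0.0266), and without scaling factors (adjusted p = 0.0470).

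Reads can be shared between HLA genes, since their coding sequences are close copies, and the way such reads were counted is not stated. The extent was gauged on the reference transcripts of GENCODE release 29 by asking which windows of a transcript occur unchanged in another HLA gene. Windows that differ at even a single base were not counted, so these shares can understate how many reads fit several HLA genes. With 50-base windows these made up 2.54% of HLA-B, 6.71% of HLA-C and 4.66% of HLA-E. With 100-base windows they made up 0% of HLA-B, 0.27% of HLA-C and 0.60% of HLA-E. The alleles carried by MDA-MB-468 differ from the reference at unknown places and the read length is not given, so counts of single HLA genes stay uncertain in level.

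A sum over the 3 HLA rows does not depend on how reads were split among them. It can still depend on reads shared with HLA genes outside the sum and on shared reads left uncounted. With 50-base windows HLA-C shared 1.99% with HLA-B and 1.73% with HLA-E, of 6.71% with any other HLA gene. For HLA-E these shares were 0.04% with HLA-B and 1.02% with HLA-C, of 4.66%. The sum came to 664, 676 and 517 CPM in EPZ5676 ALDH1+ cells, against 416, 432 and 406 CPM in DMSO ALDH1+ cells. In ALDH1- cells the sum was 654, 682 and 588 CPM with EPZ5676, against 445, 430 and 374 CPM with DMSO. The groups did not overlap, and the summed row rose by 0.57 (SE 0.10, adjusted p = 4.9e-04) in ALDH1+ cells and 0.62 (SE 0.10, adjusted p = 3.2e-04) in ALDH1- cells by edgeR. Within the sum the makeup differed between treatments. HLA-B took 21.5, 22.9 and 19.2% of the summed counts in EPZ5676 ALDH1+ cells, against 11.1, 13.4 and 11.1% in DMSO ALDH1+ cells. In ALDH1- cells it took 21.8, 22.9 and 19.8% with EPZ5676, against 12.8, 12.1 and 10.3% with DMSO. The share of HLA-E was lower with EPZ5676, at 30.8 to 34.8% against 41.6 to 44.6% in ALDH1+ cells and at 33.4 to 34.7% against 43.7 to 48.4% in ALDH1- cells. HLA-C held between 41.3 and 46.3% in all 12 libraries.

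**Figure D2:**
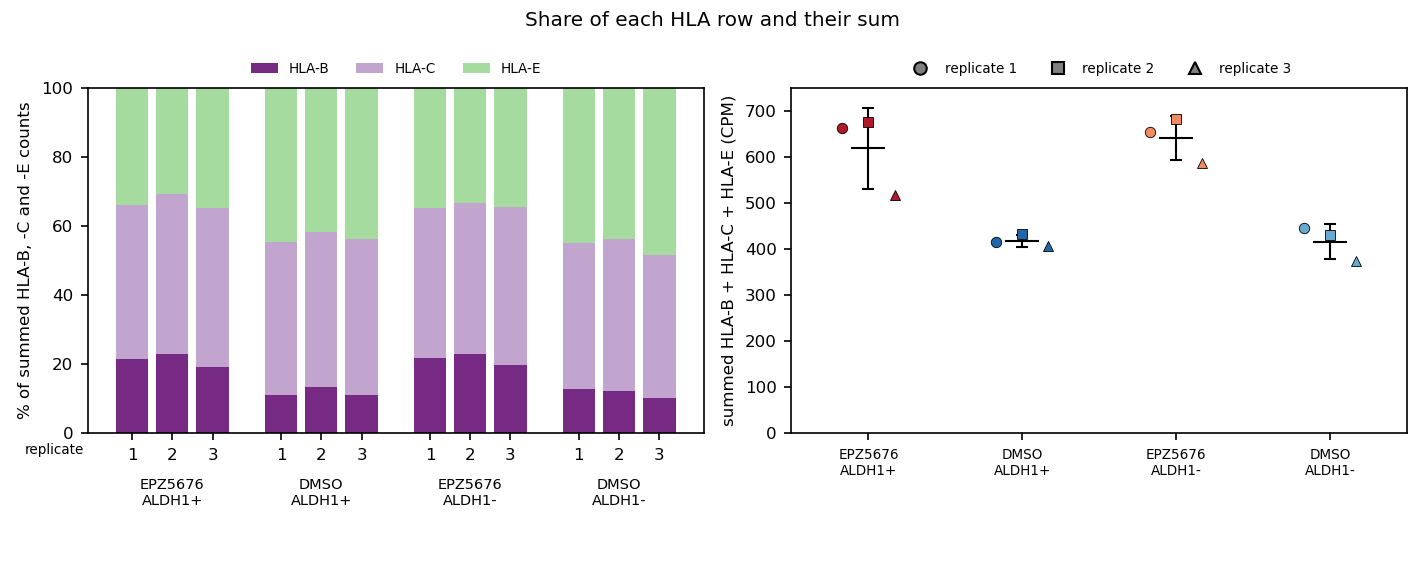
Left, share in percent of the summed HLA-B, HLA-C and HLA-E counts taken by each gene in every library. Right, that sum in CPM from 0, with the mean as a bar and the SD as whiskers (n = 3). HLA-B holds 19.2 to 22.9% in the EPZ5676 libraries and 10.3 to 13.4% in the DMSO libraries, and each EPZ5676 sum, 517 CPM or more, lies above each DMSO sum, 445 CPM or less.

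B2M, the light chain of every class I molecule, rose less firmly than HLA-B. It had 357, 472 and 281 CPM in EPZ5676 ALDH1+ cells, against 252, 312 and 270 CPM in DMSO ALDH1+ cells. Among ALDH1- cells, B2M had 340, 305 and 285 CPM with EPZ5676, against 232, 248 and 212 CPM with DMSO. The groups overlapped in ALDH1+ cells, where EPZ5676 replicate 2 was the highest library, and did not overlap in ALDH1- cells. By edgeR the log2 fold change was 0.42 (SE 0.14, adjusted p = 0.0384) in ALDH1+ cells and 0.43 (SE 0.14, adjusted p = 0.0446) in ALDH1- cells. Both calls lay near the threshold and were lost without any of several libraries. In ALDH1+ cells the adjusted p was 0.239 without EPZ5676 ALDH1+ replicate 2, where the fold change was 0.20, and 0.0610 without replicate 1. It was 0.119 and 0.107 without DMSO ALDH1+ replicates 1 and 3, and 0.0516 without EPZ5676 ALDH1- replicate 2. In ALDH1- cells it was 0.0865, 0.0599 and 0.148 without DMSO ALDH1- replicates 1, 2 and 3, and 0.151 and 0.0921 without EPZ5676 ALDH1- replicates 1 and 2. With only the groups compared it was 0.0746 in ALDH1+ cells, and limma-voom gave 0.0501 in ALDH1- cells.

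Both chains of the peptide pump rose, TAP2 more than TAP1 in fold change. TAP1 had 108, 106 and 91.7 CPM in EPZ5676 ALDH1+ cells, against 69.7, 77.7 and 65.5 CPM in DMSO ALDH1+ cells. In ALDH1- cells TAP1 had 111, 112 and 95.5 CPM with EPZ5676, against 75.7, 81.6 and 70.8 CPM with DMSO. Its groups did not overlap, and it rose by 0.53 (SE 0.09, adjusted p = 4.8e-04) in ALDH1+ cells and 0.48 (SE 0.09, adjusted p = 0.00140) in ALDH1- cells by edgeR. TAP2 had 109, 95.5 and 94.2 CPM in EPZ5676 ALDH1+ cells, against 56.7, 60.7 and 57.4 CPM in DMSO ALDH1+ cells. In ALDH1- cells TAP2 had 119, 109 and 95.5 CPM with EPZ5676, against 67.8, 62.0 and 60.6 CPM with DMSO. Its groups did not overlap either, and it rose by 0.77 (SE 0.09, adjusted p = 1.1e-05) in ALDH1+ cells and 0.76 (SE 0.09, adjusted p = 1.9e-05) in ALDH1- cells by edgeR. The difference in fold change between TAP1 and TAP2 was not tested.

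The immunoproteasome subunits differed in level and in response. PSMB8, the inducible subunit with chymotrypsin-like activity, had 62.7, 71.2 and 66.7 CPM in EPZ5676 ALDH1+ cells, against 52.5, 61.7 and 69.0 CPM in DMSO ALDH1+ cells. In ALDH1- cells PSMB8 had 59.5, 66.7 and 68.9 CPM with EPZ5676, against 54.5, 60.4 and 51.9 CPM with DMSO. The groups overlapped in both populations. The log2 fold change of PSMB8 was 0.13 (SE 0.10, adjusted p = 0.341) in ALDH1+ cells and 0.23 (SE 0.10, adjusted p = 0.119) in ALDH1- cells by edgeR. With the replicate number as a block PSMB8 was called higher in ALDH1- cells, at 0.22 (adjusted p = 0.0333), and likewise with only the groups compared, at 0.25 (adjusted p = 0.0457).

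PSMB9, the second inducible subunit of the list, was less abundant than PSMB8, with group means of 6.35 to 10.4 CPM per kilobase of exon against 35.9 to 43.2 for PSMB8. It had 7.67, 12.4 and 7.58 CPM in EPZ5676 ALDH1+ cells, against 4.91, 6.97 and 5.66 CPM in DMSO ALDH1+ cells. Among ALDH1- cells, PSMB9 had 10.1, 9.89 and 8.80 CPM with EPZ5676, against 6.63, 6.73 and 5.38 CPM with DMSO. These levels rest on 135 to 990 counts per library, and the groups did not overlap. PSMB9 rose by 0.69 (SE 0.18, adjusted p = 0.0107) in ALDH1+ cells and 0.62 (SE 0.19, adjusted p = 0.0295) in ALDH1- cells by edgeR. Without EPZ5676 ALDH1+ replicate 2, its highest library, the fold change in ALDH1+ cells was 0.39 (adjusted p = 0.0879). In ALDH1- cells the call was lost without DMSO ALDH1- replicates 2 (adjusted p = 0.0515) and 3 (0.113) and without EPZ5676 ALDH1- replicates 1 (0.0826) and 2 (0.0844). It was also lost there without all libraries numbered 3 (0.0729).

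Because each inducible subunit takes the place of a constitutive one, the count ratio of each pair was compared within libraries, where library scaling has no part. PSMB8 over PSMB5 was 0.686, 0.700 and 0.719 in EPZ5676 ALDH1+ cells, against 0.554, 0.583 and 0.554 in DMSO ALDH1+ cells. In ALDH1- cells it was 0.750, 0.768 and 0.755 with EPZ5676, against 0.587, 0.654 and 0.582 with DMSO. The log2 ratio was higher with EPZ5676 by 0.31 in ALDH1+ cells and 0.32 in ALDH1- cells, with no overlap in either. This ratio moves with both of its genes. By edgeR PSMB8 had log2 fold changes of 0.13 in ALDH1+ cells and 0.23 in ALDH1- cells. PSMB5 had -0.19 and -0.09, and neither gene was called in either population. PSMB9 over PSMB6 was higher by 0.70 and 0.68 on the log2 scale, again with no overlap. PSMB10 over PSMB7 differed by -0.06 and -0.01, and its groups overlapped. The exact two-sided permutation test gave p = 0.1 for each of these 4 differences with no overlap between EPZ5676 and DMSO, the smallest p that 3 against 3 libraries allow, and p = 0.8 and 1 for PSMB10 over PSMB7. Between the sorted populations 1 of 6 ratio differences had no overlap: under EPZ5676 PSMB8 over PSMB5 was lower in ALDH1+ than in ALDH1- cells, with a log2 difference of -0.11 (exact permutation p = 0.1). Adjusted over 12 such tests the smallest p was 0.24. With 3 against 3 libraries no ratio could reach the threshold, so the test cannot decide whether the ratios differ.

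**Figure D3:**
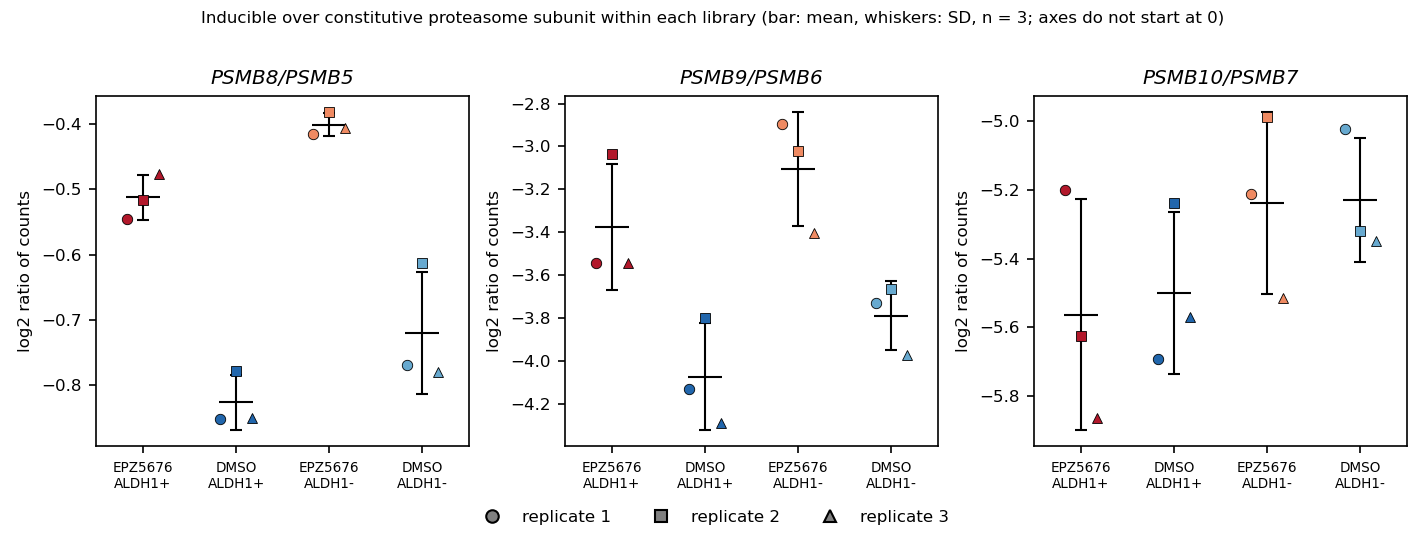
log2 ratio of the counts of an inducible proteasome subunit over its constitutive counterpart in every library, by group, with the mean as a bar and the SD as whiskers (n = 3). Axes do not start at 0. For PSMB8/PSMB5 and PSMB9/PSMB6 the EPZ5676 libraries lie above the DMSO libraries of the same population, by 0.31 to 0.70 in the mean, and for PSMB10/PSMB7 they overlap.

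NLRC5, the class I transactivator, rose in both populations from a low level. It had 20.3, 18.7 and 17.6 CPM in EPZ5676 ALDH1+ cells, against 13.0, 13.1 and 11.8 CPM in DMSO ALDH1+ cells. Among ALDH1- cells, NLRC5 had 19.4, 23.3 and 17.4 CPM with EPZ5676, against 15.4, 15.5 and 15.2 CPM with DMSO. The groups did not overlap. By edgeR NLRC5 rose by 0.58 (SE 0.11, adjusted p = 7.3e-04) in ALDH1+ cells and 0.39 (SE 0.11, adjusted p = 0.0166) in ALDH1- cells. In ALDH1- cells the call was lost without DMSO ALDH1- replicate 3 (adjusted p = 0.0564) and without EPZ5676 ALDH1- replicate 2, where the fold change was 0.26 (adjusted p = 0.106).

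The sort was compared next, ALDH1+ with ALDH1- cells under each treatment, and edgeR called 0 of the 9 genes. Under EPZ5676 it called 3 of 16327 genes (0.0184%) and under DMSO 0 (0%). At an unadjusted p below 0.05 there were 1032 genes and none of the 9 under EPZ5676, and 2904 genes and 1 of the 9, NLRC5, under DMSO. DESeq2 called 31 genes under EPZ5676 and 298 under DMSO, and limma-voom called 3 and 0, in each case with 0 of the 9. With the replicate number as a block edgeR called 75 and 1384 genes, again with 0 of the 9, and the number of the 9 with an unadjusted p below 0.05 was 1 under EPZ5676 and 2 under DMSO. The adjusted p of NLRC5 under DMSO was then 0.0571. Within same-numbered libraries HLA-E, TAP1 and TAP2 had lower log2 CPM in ALDH1+ than in ALDH1- cells in all 6 pairs, with differences of -0.01 to -0.17 for HLA-E, -0.04 to -0.12 for TAP1 and -0.02 to -0.26 for TAP2, a direction that 7.36% of all genes tested shared in all 6 pairs. The 95% intervals of the 9 fold changes ran from -0.42 to 0.56 under EPZ5676 and from -0.52 to 0.57 under DMSO. Of these 18 intervals only that of NLRC5 under DMSO, from -0.52 to -0.06, left out 0.

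Under DMSO NLRC5 and B2M stood furthest from 0 between the sorted populations. In DMSO cells NLRC5 averaged 12.6 ± 0.8 CPM in ALDH1+ cells and 15.4 ± 0.2 CPM in ALDH1- cells (SD, n = 3), with no overlap. Its log2 fold change was -0.29 (SE 0.11, adjusted p = 0.203) by edgeR. Under EPZ5676 NLRC5 averaged 18.9 ± 1.4 CPM in ALDH1+ cells and 20.1 ± 3.0 CPM in ALDH1- cells, a log2 fold change of -0.09 (SE 0.10). B2M averaged 278 ± 31 CPM in DMSO ALDH1+ cells and 231 ± 19 CPM in DMSO ALDH1- cells, with no overlap (log2 fold change 0.27, SE 0.14, adjusted p = 0.341 by edgeR). Without the filter on low counts that difference was called, with an adjusted p of 0.0173. Under EPZ5676 B2M averaged 370 ± 96 CPM in ALDH1+ cells and 310 ± 28 CPM in ALDH1- cells, a log2 fold change of 0.26 (SE 0.14), and the groups overlapped. Groups lay apart under DMSO for 10.6% of all genes higher in ALDH1+ cells and 12.4% lower. Under EPZ5676 they lay apart for 0 of the 9 genes, beside 4.95% of all genes higher and 4.62% lower. The other 7 genes had fold changes between -0.12 and 0.14 under DMSO. Under EPZ5676 B2M stood furthest from 0, followed by TAP2 at -0.11 (SE 0.09) and HLA-E at -0.10 (SE 0.08).

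Whether the treatment effect differed between ALDH1+ and ALDH1- cells was tested as an interaction, and edgeR called 0 of the 9 genes and 0 of 16327 overall (0%). At an unadjusted p below 0.05 there were 597 genes and none of the 9. The differences in log2 fold change, ALDH1+ minus ALDH1-, lay between -0.10 for PSMB8 and 0.20 for NLRC5 (SE 0.15), with 95% intervals from -0.58 to 0.63 over the 9 genes.

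**Figure D4:**
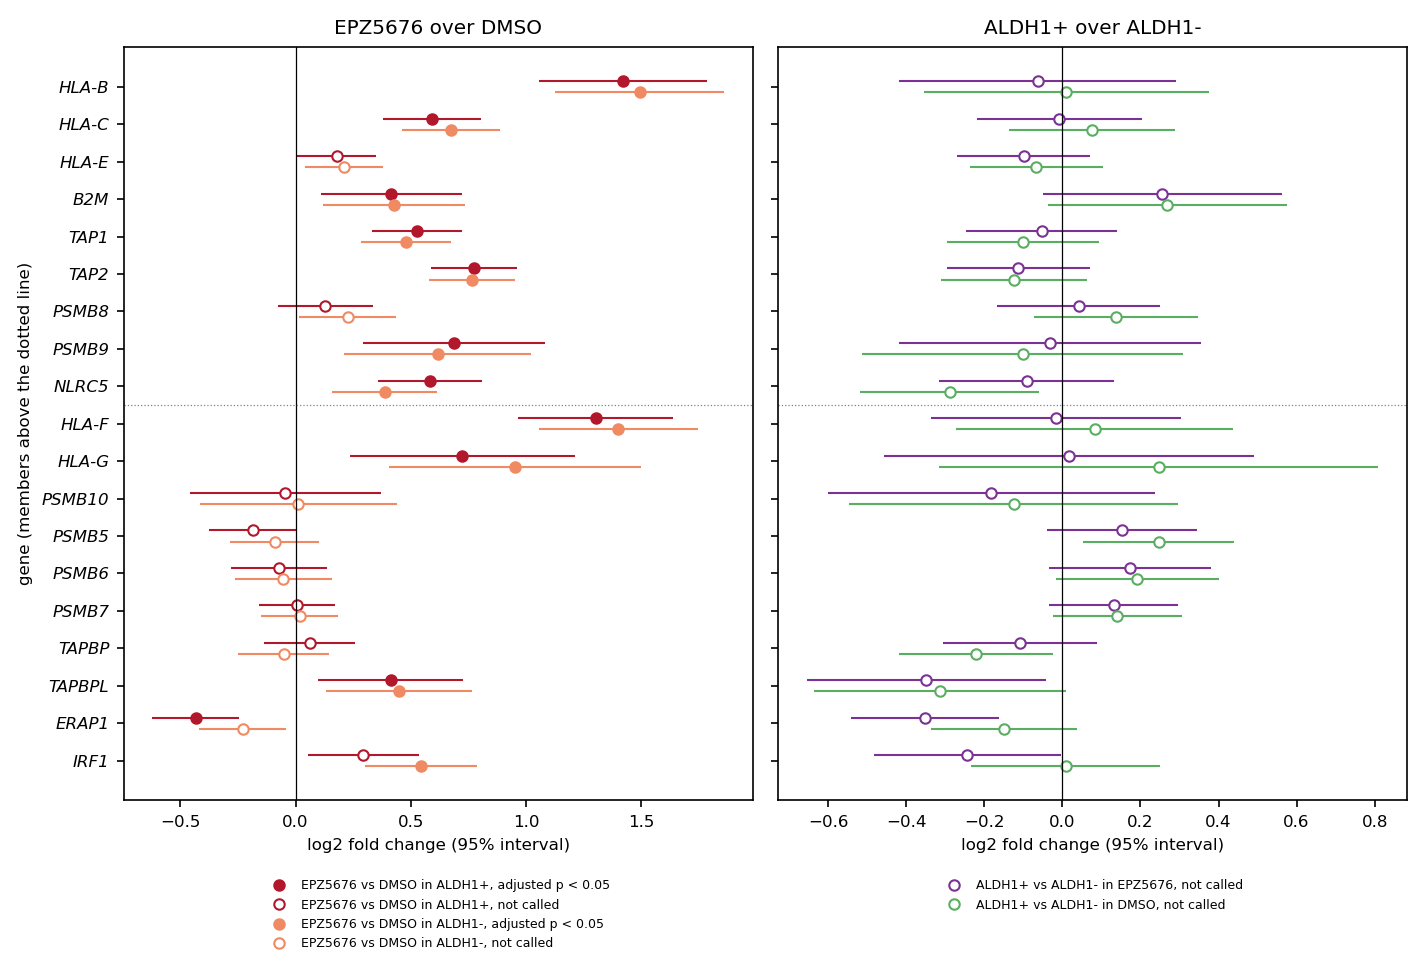
log2 fold change with its 95% interval for the 9 genes, above the dotted line, and for related genes below it, with EPZ5676 over DMSO on the left and ALDH1+ over ALDH1- on the right. Filled points had an adjusted p below 0.05 by edgeR. On the left 7 of the 9 genes are filled in both populations, led by HLA-B at 1.42 and 1.49, and on the right none is filled.

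Levels of different genes were compared per kilobase of annotated exon. The length was the union of all annotated exons of a gene, 2.378 kilobases for B2M and 1.554 for HLA-C. Transcripts in these cells can be shorter than that union, so the orders below depend on the length used. In CPM without a length, B2M averaged above HLA-C in ALDH1- cells, at 310 against 284 with EPZ5676 and 231 against 178 with DMSO. In EPZ5676 ALDH1- cells HLA-C was highest at 183 CPM per kilobase, followed by B2M at 130, HLA-B at 87.3, HLA-E at 84.3, PSMB8 at 42.0, TAP1 at 35.9, TAP2 at 17.5, PSMB9 at 10.4 and NLRC5 at 2.94. In DMSO ALDH1- cells the order was HLA-C at 114 CPM per kilobase, B2M at 97, HLA-E at 72.9, PSMB8 at 35.9, HLA-B at 31.0, TAP1 at 25.7, TAP2 at 10.3, PSMB9 at 6.78 and NLRC5 at 2.25. HLA-B thus stood above PSMB8 and next to HLA-E with EPZ5676, and between PSMB8 and TAP1 with DMSO. Its libraries overlapped those of HLA-E with EPZ5676 (73.5 to 98.5 against 78.1 to 87.4) and those of PSMB8 with DMSO (24.3 to 35.8 against 33.5 to 39.0), so neither of these neighbours differed beyond their spread. In DMSO ALDH1- cells HLA-B also overlapped TAP1 (23.9 to 27.6), and HLA-C overlapped B2M (99.2 to 122 against 88.9 to 104), while the other neighbours in both orders did not overlap. B2M and HLA-C overlapped in EPZ5676 ALDH1+ cells, at 118 to 199 and 153 to 202 CPM per kilobase. In ALDH1+ cells the 9 means spanned 2.76 to 182 CPM per kilobase with EPZ5676 and 1.85 to 121 with DMSO.

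Other class I heavy chains and relatives were read from a list of 7 genes, of which 5 could be tested. In ALDH1+ cells 3 rose and 2 fell, and in ALDH1- cells 3 rose and 1 fell. HLA-F, a nonclassical chain, had 16.5 ± 2.9 CPM in EPZ5676 ALDH1+ cells and 6.77 ± 0.30 CPM in DMSO ALDH1+ cells (SD, n = 3). It rose by 1.30 (SE 0.16) there and by 1.40 (SE 0.16) in ALDH1- cells. HLA-G, at 1.56 ± 0.36 CPM in EPZ5676 ALDH1+ cells and 0.944 ± 0.21 CPM in DMSO ALDH1+ cells, rose by 0.72 (SE 0.23) and 0.95 (SE 0.26). HLA-F and HLA-G carry the same uncertainty of shared reads as the HLA genes above. MR1, which presents vitamin B metabolites to mucosal-associated invariant T cells, fell by 0.69 (SE 0.12) in ALDH1+ cells and 0.64 (SE 0.12) in ALDH1- cells. HFE, a class I-like regulator of iron uptake, fell by 0.63 (SE 0.14) in ALDH1+ cells and had a log2 fold change of -0.36 (adjusted p = 0.0849) in ALDH1- cells by edgeR.

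The genes that load and trim peptides changed in both directions. Of 10 tested, 2 rose and 2 fell in ALDH1+ cells and 1 rose and 1 fell in ALDH1- cells, with median log2 fold changes of 0.04 and -0.04, beside -0.01 and -0.02 over all genes tested. TAPBPL, a peptide editor related to tapasin, rose by 0.41 (SE 0.15) and 0.45 (SE 0.15). The trimming peptidase ERAP1 fell by 0.43 (SE 0.09) in ALDH1+ cells and had a log2 fold change of -0.23 (adjusted p = 0.0763 by edgeR) in ALDH1- cells. Tapasin, TAPBP, had 0.06 (SE 0.09) and -0.05 (SE 0.09). Of 4 partners of the immunoproteasome, 0 were called in either population. They include PSMB10, the third inducible catalytic subunit, at 3.53 ± 0.85 CPM in EPZ5676 ALDH1+ cells and 3.64 ± 0.71 CPM in DMSO ALDH1+ cells (log2 fold change -0.05, SE 0.19). Of 11 constitutive proteasome genes, 1 fell in ALDH1+ cells and 0 were called in ALDH1- cells. PSMB5, the counterpart of PSMB8, had -0.19 (SE 0.09) and -0.09 (SE 0.09).

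Of 16 transcription factors known to act at class I promoters or in the class I and class II pathways, 1 rose and 3 fell in ALDH1+ cells and 2 rose and 2 fell in ALDH1- cells. IRF1, an interferon-induced activator, had 35.8 ± 4.9 CPM in EPZ5676 ALDH1+ cells and 29.1 ± 3.7 CPM in DMSO ALDH1+ cells, which is 0.29 on the log2 scale (SE 0.11, adjusted p = 0.0593 by edgeR). In ALDH1- cells IRF1 averaged 42.3 ± 4.4 CPM with EPZ5676 and 29 ± 1.1 CPM with DMSO and rose by 0.55 (SE 0.11, adjusted p = 0.00275). RFX5, a subunit of the complex through which NLRC5 reaches class I promoters, fell by 0.45 (SE 0.09) in each population. CIITA, the class II counterpart of NLRC5, was called higher in both but stood at 0.357 ± 0.065 CPM in EPZ5676 ALDH1+ cells and 0.0236 ± 0.041 CPM in DMSO ALDH1+ cells, with 0 counts in some DMSO libraries.

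Of 18 interferon ligands, receptors and JAK-STAT genes, 13 could be tested, of which 4 rose and 2 fell in ALDH1+ cells and 3 rose and 1 fell in ALDH1- cells. IFNGR1, the ligand-binding chain of the interferon-gamma receptor, had 87.8 ± 7.4 CPM in EPZ5676 ALDH1+ cells and 176 ± 6.7 CPM in DMSO ALDH1+ cells. It fell by 1.00 (SE 0.08, adjusted p = 6.6e-07) there and by 0.79 (SE 0.08, adjusted p = 9.8e-06) in ALDH1- cells, by edgeR. The second chain, IFNGR2, rose by 0.47 (SE 0.10) and 0.44 (SE 0.10). SOCS3, a feedback inhibitor of cytokine signalling, rose by 1.20 (SE 0.21) and 1.07 (SE 0.21).

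Ligands read by T cells and NK cells were listed as well, 12 genes of which 11 could be tested. Of these 6 rose and 3 fell in each population. CD274, which encodes the inhibitory ligand PD-L1, had 15 ± 6.1 CPM in EPZ5676 ALDH1+ cells and 1.67 ± 0.47 CPM in DMSO ALDH1+ cells, a log2 fold change of 3.24 (SE 0.35). In ALDH1- cells it had 15.1 ± 5.3 CPM with EPZ5676 and 2.01 ± 0.20 CPM with DMSO, a log2 fold change of 2.91 (SE 0.34). ULBP2, a ligand of the activating NK receptor NKG2D, rose by 0.96 (SE 0.15) and 1.04 (SE 0.16). Of 11 genes of class I turnover and repression, 3 rose and 2 fell in ALDH1+ cells and 2 rose and 3 fell in ALDH1- cells. MARCHF4, a membrane ubiquitin ligase that can lower surface class I, had 11.9 ± 3.6 CPM in EPZ5676 ALDH1+ cells and 0.916 ± 0.29 CPM in DMSO ALDH1+ cells, and rose by 3.79 (SE 0.29) there and by 3.35 (SE 0.29) in ALDH1- cells. The Polycomb methyltransferase EZH2 fell by 0.34 (SE 0.08) and 0.31 (SE 0.08). In comparisons between ALDH1+ and ALDH1- cells, 0 genes of these 8 lists were called.

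The genes whose pattern over the 12 libraries was most like the mean of the 9 genes, by Pearson correlation of log2 CPM, were TRIM7 (r = 0.986), FADD (0.985), CST6 (0.982), CGAS (0.982) and PELO (0.980). Those most like NLRC5 were TTC7A (0.982), KLHL29 (0.976), MET (0.975), CXCL16 (0.975) and XKR8 (0.973). The libraries fall into EPZ5676 and DMSO sets, so these values mostly describe a shared difference between the sets.

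Over all genes, the first principal component (62.3% of the variance) parted the treatments. On it the EPZ5676 libraries numbered 3 lay at 26.8 in ALDH1+ cells and 27.3 in ALDH1- cells, against 40.5 to 42.5 for the other EPZ5676 libraries. The DMSO libraries numbered 3 were shifted in the same direction. They lay at -47.4 in ALDH1+ cells, against -37.6 and -37.0, and at -39.1 in ALDH1- cells, against -26.3 and -32.4. Without the libraries numbered 3, 8 of the 9 genes were called higher in ALDH1+ cells, where HLA-E joined the 7 (adjusted p = 0.0192 by edgeR). In ALDH1- cells 7 of 9 were called, with HLA-E (adjusted p = 0.0289) and without PSMB9 (adjusted p = 0.0729). DOT1L had log2 fold changes with EPZ5676 of -0.11 (SE 0.09) and -0.25 (SE 0.10), not called in either population. Because EPZ5676 inhibits the enzyme, this transcript does not check the treatment. ALDH1A3 lay at 1818 to 2058 CPM in ALDH1+ cells and 1412 to 1512 CPM in ALDH1- cells under EPZ5676, and at 1467 to 1864 CPM in ALDH1+ cells and 1361 to 1380 CPM in ALDH1- cells under DMSO, with no overlap in either. The log2 fold changes of 0.43 under EPZ5676 (adjusted p = 0.157) and 0.26 under DMSO (adjusted p = 0.171, by edgeR) did not pass the threshold. Class I genes are also expressed by leukocytes, so 9 leukocyte markers were summed. They reached 9.59 to 12.5 CPM in EPZ5676 ALDH1+ cells against 7.13 to 8.55 CPM in DMSO ALDH1+ cells, and 11.4 to 17.2 CPM in EPZ5676 ALDH1- cells against 8.79 to 11.4 CPM in DMSO ALDH1- cells. CSF1R made up most of each sum, while CD3E, LYZ, CD68 and TYROBP averaged 0.0133 CPM or less in every group. Of the 3 that could be tested, PTPRC and CSF1R rose in each population, and CD14 fell in ALDH1+ cells only. PTPRC rose by 1.53 (SE 0.46) in ALDH1+ cells, where its groups overlapped, and by 2.06 (SE 0.47) in ALDH1- cells. It averaged 0.458 CPM in EPZ5676 ALDH1+ cells against 0.164 with DMSO, and 0.713 CPM in EPZ5676 ALDH1- cells against 0.169. LAPTM5, which was not tested, averaged 0.302 against 0.0239 CPM in ALDH1+ cells and 0.248 against 0.0250 CPM in ALDH1- cells. Summed over 5 fibroblast markers, levels were 21.3 to 25.0 CPM in EPZ5676 ALDH1+ cells against 8.89 to 14.2 CPM in DMSO ALDH1+ cells, and 18.5 to 20.6 CPM in EPZ5676 ALDH1- cells against 10.6 to 13.5 CPM in DMSO ALDH1- cells. COL1A1 made up most of each sum and rose by 1.02 (SE 0.14) in ALDH1+ cells and 0.72 (SE 0.15) in ALDH1- cells. DCN and LUM were at 0 in every library. Endothelial markers stayed below 0.94 CPM in sum. Of them VWF was called higher in ALDH1+ cells, at 2.25 (SE 0.57), and was not called in ALDH1- cells. The 7 epithelial markers of the line summed to 17563 to 21944 CPM. Of these 2 rose and 3 fell in ALDH1+ cells, and 1 rose and 0 fell in ALDH1- cells. The part of leukocyte, fibroblast or endothelial markers in the rise of the class I genes was not tested.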

How the data were processed

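Total RNA was sequenced with strand-marking libraries, per the labels' protocols. Trim Galore, STAR and build hg19 are named, without versions, in the submitters' processing notes. No source used here gives the counting program, its strand setting or the annotation. Raw counts per gene were deposited as 1 table of 57783 genes and 12 libraries. Identifiers matched symbols for 51959 genes.

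Counts were fitted in edgeR 4.0.16 (R 4.3.3) with filterByExpr (minimum count 10), TMM factors of 0.975 to 1.021 and a term per group over all 12 libraries. P-values were adjusted by Benjamini-Hochberg over 16327 genes and called below 0.05. Ratios were compared by exact permutation tests. Exon lengths and transcripts came from GENCODE release 29 on GRCh38, and promoters from RefSeq on GRCh38.p14, while the counts were made on hg19, so no coordinates of the counts are given. The scripts were tested on simulated data. The promoter motif patterns were set after first matches had been seen and only describe the windows. Alternatives were median-ratio (RLE) scaling, no scaling factors, no filter, at least 1 CPM in 3 libraries, DESeq2 1.42.0, limma-voom (limma 3.58.1), only the groups compared, libraries thinned to 24348594 counts, the summed HLA rows, the replicate block and each library left out. Leaving out the libraries numbered 3 and counting directions within same-numbered pairs were added after seeing the data.

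Replicates differed beyond counting noise, with chi-square per degree of freedom from 4.04 to 33.8. Replicate numbers recur in all groups: deviations from group means over 12354 genes correlated for same-numbered libraries at 0.17 to 0.65 in all 18 pairs, and for different numbers at -0.66 to 0.22, so the numbers pair the libraries. The labels' protocols call the replicates biological but do not say what a number marks or whether they were separate cultures, so p-values measure the spread between these libraries.

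The 9 genes and the lists were chosen with earlier results of these data known. The text names the 9 genes, DOT1L, ALDH1A3, up to 4 genes per list with the smallest p in ALDH1+ cells, fixed checks such as IRF1, and the 5 genes most alike. HLA-G was named after its values were seen, and some genes that the rule allows are not reported here. Both comparisons of EPZ5676 with DMSO use separate control libraries. Since the replicate numbers pair the libraries across populations, the results in ALDH1+ and ALDH1- cells are not independent of each other. Comparisons of ALDH1+ with ALDH1- reuse the same libraries.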

Additional observations from a re-analysis of the deposited data

How the results depend on the processing

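In both treatment comparisons all 9 genes kept a positive log2 fold change under every alternative run. HLA-B, HLA-C, TAP1 and TAP2 stayed called in both populations under every alternative, with HLA-B at 1.29 to 1.59 on the log2 scale in ALDH1+ cells and 1.35 to 1.61 in ALDH1- cells when 1 library was left out. The number of the 9 genes called higher was 5 to 8 in ALDH1+ cells and 4 to 8 in ALDH1- cells when 1 library was left out, and 6 to 8 and 6 to 9 under the other settings. With the replicate block it was 8 and 9, and the number of all genes called lower in ALDH1- cells was 2423, against 1476 in the main analysis and 891 to 1609 with 1 library left out. Between ALDH1+ and ALDH1- cells under EPZ5676, genes called higher and lower numbered 3 and 0 in the main analysis, 139 and 96 with no filter, 16 and 15 by DESeq2, 31 and 44 with the replicate block, and 20 and 41 without the libraries numbered 3. With only the groups compared 2 were lower, and with 1 library left out 0 to 9 were higher and 0 to 15 lower. Under DMSO the counts were 0 and 0 in the main analysis, 538 and 410 with no filter, 146 and 152 by DESeq2, and 564 and 820 with the replicate block, and 0 to 1 were lower with 1 library left out. The interaction gave 25 higher and 12 lower with no filter, against 0 and 0. Of the 9 genes, 1, B2M, was called between the sorted populations, under DMSO with no filter. The cause of these changes was not tested. Apart from HLA-E and PSMB8, the replicate block changed no call of the 9 genes. PSMB9 rests on the fewest counts, and the libraries whose removal ends the calls of B2M, PSMB9 and NLRC5 stand beside those results.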
